A study of Mus musculus with 8 samples.

Results

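YTHDF3-binding peaks at transcript ends were examined in mouse embryonic fibroblasts (MEFs). Members were all peaks of the 4 YTHDF3 RIP-seq libraries that the authors' annotation assigned to a transcription termination site (TTS), which HOMER sets as 100 bp before to 1000 bp after the end of an annotated transcript. This rule gave 2415 TTS peaks of 87940 deposited peaks. The cells were wild-type C57BL/6 MEFs from embryos of 13.5 dpc at passage 5 to 6. They were kept in normal medium or were deprived of nutrients for 2 h, and RNA bound to endogenous YTHDF3 was pulled down with an antibody (IP) and compared with input RNA. There were 2 replicates per condition, with 4 IP libraries and 4 input libraries. Nothing in the labels says whether replicates were separate embryos or cultures, so that errors and p-values cover the spread between these samples, which may be technical.

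YTHDF3 is a cytoplasmic reader protein that binds RNA carrying N6-methyladenosine (m6A). The mark is placed by the METTL3-METTL14 complex at short motifs that contain GGAC, mostly in long internal exons and near stop codons and in 3′UTRs. The end of a messenger RNA is made by cleavage and polyadenylation, directed by a poly(A) signal, most often AATAAA, that lies shortly before the cleaved base. RNA beyond an annotated end can belong to a longer form of the same transcript, to a neighbouring gene or to a host gene in which a small RNA gene lies.

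The sequences around the recurrent TTS peaks show what such an end can be. The first set shows poly(A) signals, in capitals, at annotated ends of genes whose ends or overlapping exons lay at TTS peaks found in all 4 libraries. They are printed 5′ to 3′ on the transcribed strand of mm10 (GRCm38.p6), from the last exon of each gene.
Gna12, chr5:140758410-140758439, minus strand: aataaatgtaacAATAAAtgtgataaaaac
Stk11, chr10:80130646-80130675, plus strand: cttttggcaataAATAAAgcttgggaaact
Zfp335, chr2:164891894-164891923, minus strand: ggctcctgtctcAATAAAgggaccagagtc
Pcif1, chr2:164894422-164894451, plus strand: gctcgagatgtcAATAAAgagttgttatac
In each of these the signal ended 14 to 24 nt before the annotated end, with 14 nt for Gna12, 19 nt for Stk11, 24 nt for Zfp335 and 15 nt for Pcif1. Zfp335 and Pcif1 lie on opposite strands and overlap at their 3′ ends. The peak centers lay 102 to 332 bp beyond an annotated end of Zfp335.

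The second set shows mature miRNAs whose genes gave the TTS label to recurrent TTS peaks with many reads. The seed, bases 2 to 8, is in capitals, the sequences are those of RefSeq, and positions are on GRCm38.p6.
miR-6995-3p, chr19:47273519-47273539, minus strand: uGUGUCCCcuuccucucacag
miR-6991-5p, chr19:7422578-7422599, plus strand: uGGAGAACagggacugggccug
Among 22 mature miRNAs from 14 miRNA genes at recurrent TTS peaks, 0 seeds were shared. Both genes shown lie inside a longer gene on the same strand (Sh3pxd2a and 2700081O15Rik), and the peaks there, far longer than a mature miRNA, cover host exons.

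The third set shows GGAC, in capitals, nearest to the center of a TTS peak, on the strand of the exon below it.
Mapkbp1, coding exon, chr2:120017813-120017833, plus strand: tatgacatGGACgtggagccc
Cbarp, coding exon, chr10:80131635-80131655, minus strand: aacagagaGGACggcagcaca
Podnl1, 3′UTR, chr8:84132311-84132331, plus strand: gagactgtGGACtaagaaagc
Hspa12b, 3′UTR, chr2:131146071-131146091, plus strand: gatcaaagGGACatggcaagg
These motifs lay 22, 30, 0 and 30 nt from the peak center, in the order printed. A motif match is a description and was not tested as a binding site.

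The deposited lists held 475 and 553 TTS peaks in normal MEFs, and 784 and 603 under nutrient deprivation (replicates 1 and 2 in each case). The study's thresholds for a target (IP at least 2 times input, and a peak p below 0.0001) kept 2388 TTS peaks and left out 27. The kept peaks numbered 473 and 548 in normal MEFs, and 772 and 595 under nutrient deprivation. TTS peaks were thus a small class, 2.72% and 2.5% of all kept peaks in normal MEFs, and 3.34% and 2.41% under nutrient deprivation. Starved replicate 1 had the highest share and starved replicate 2 the lowest, so that the conditions overlapped. The share was 0.266 percentage points higher in starved MEFs on average (exact permutation test, two-sided, p = 1). With 2 against 2 libraries at least 2 of the 6 splits are as extreme as any result, so that no such test can pass 0.05.

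The IP reads in TTS peaks summed to 115724 and 200790 for normal and to 254706 and 223058 for starved MEFs, out of 8818619 to 19271667 IP reads in all kept peaks of a library. These sums leave out reads outside peaks, and library depth is not known. Of 11 fibroblast markers 4 to 6 had a peak. Pdgfrb, Col5a1 and Col3a1 had peaks in every library, whereas Col1a1, Vim, Postn and S100a4 had none. Of markers of other cell types, 0 of 4 epithelial and 0 of 3 muscle genes had a peak, with 1 of 4 endothelial (Kdr) in every library and 1 of 4 neural (Nes) in starved replicate 1. The macrophage markers Ptprc, Cd68 and Adgre1 also had none, while Csf1r, the genomic neighbour of Pdgfrb, was named at 7 or 8 peaks per library. It was the deposited name of 0 TTS peaks, but its end was the nearest at 1 TTS region found in all 4 libraries (deposited as Mir6983), with 905 and 138 IP reads in normal and 1189 and 1105 in starved MEFs. In bulk RNA, fewer cells of a type and less RNA per cell cannot be told apart.

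Where TTS peaks lay inside their window was described with GENCODE ends on the same genome build. A GENCODE end lay in the window of 1811 kept TTS peaks, and 567 more were placed by the RefSeq transcript that the deposited annotation names. Only 10 could not be placed. Centers were spread along the whole window. Among TTS peaks with a GENCODE end (363, 409, 584 and 455 in normal replicates 1 and 2 and starved replicates 1 and 2), they lay beyond it in 92.3% and 89.5% in normal MEFs and in 89.4% and 91.9% in starved MEFs (90.8% ± 1.54, SD, n = 4 libraries). The part of the window beyond the end makes up 90.9% of it. The median center was 461 and 394 bp beyond the end in normal MEFs and 438 and 423 bp beyond it in starved MEFs. Each bin of 100 bp held 6.11% to 11.7% of these peaks in a library, and the fullest bin was a different one in each library.

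**Figure D1:**
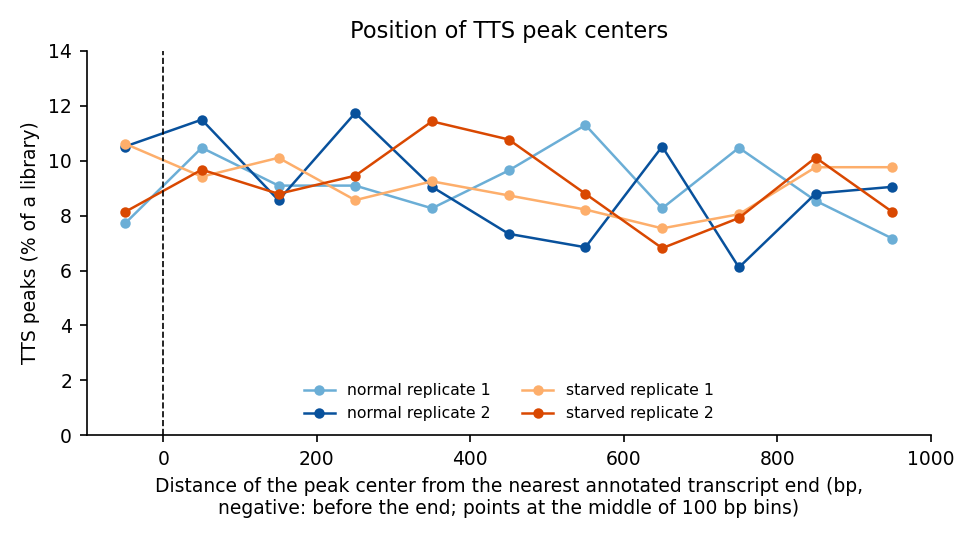
Share of TTS peaks (y axis, % of a library's TTS peaks with a GENCODE end) in 100 bp bins of distance between peak center and nearest annotated transcript end (x axis, bp, positive beyond the end, dashed line at the end). Each line is 1 of the 4 IP libraries, and all bins lie between 6.11% and 11.7%.

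Of the same peaks, 29.8% and 33.5% reached across the annotated end in normal MEFs and 32.4% and 31.4% did so in starved MEFs. By position, the median log2 IP/input fold in normal replicate 1 was 1.86 for centers before the end, 1.91 for centers up to 500 bp beyond it and 1.8 for centers further out. The spread over these 3 groups was widest in starved replicate 2, with 2.10, 1.82 and 1.74. Centers before the end had the fewest input reads in every library, with medians of 11, 8, 2 and 4 reads.

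Most TTS peaks lay on annotated exons, but often not on an exon of the gene whose end was nearest. The center fell in an exon of the same gene in 39.7% and 39.6% of TTS peaks in normal MEFs and in 40.3% and 38.3% in starved MEFs (39.5% ± 0.833, SD, n = 4). It fell in an exon of another gene on the opposite strand in 25.6% and 19.0% in normal MEFs, and 26.2% and 19.3% under nutrient deprivation. Another 7.77% to 10.3% lay in an exon of another gene on the same strand, 9.67% to 11.6% in an intron and 12.7% to 22.4% between genes. The same-gene share was nearly equal in the 4 libraries. The opposite-strand and between-gene shares followed the replicate number instead: both libraries of replicate 1 had more opposite-strand centers and fewer centers between genes than both libraries of replicate 2. Between conditions the opposite-strand share differed by 0.468 percentage points and the between-gene share by 0.834 (exact permutation tests, two-sided, p = 0.667 and p = 1). What set the replicates apart was not tested.

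**Figure D2:**
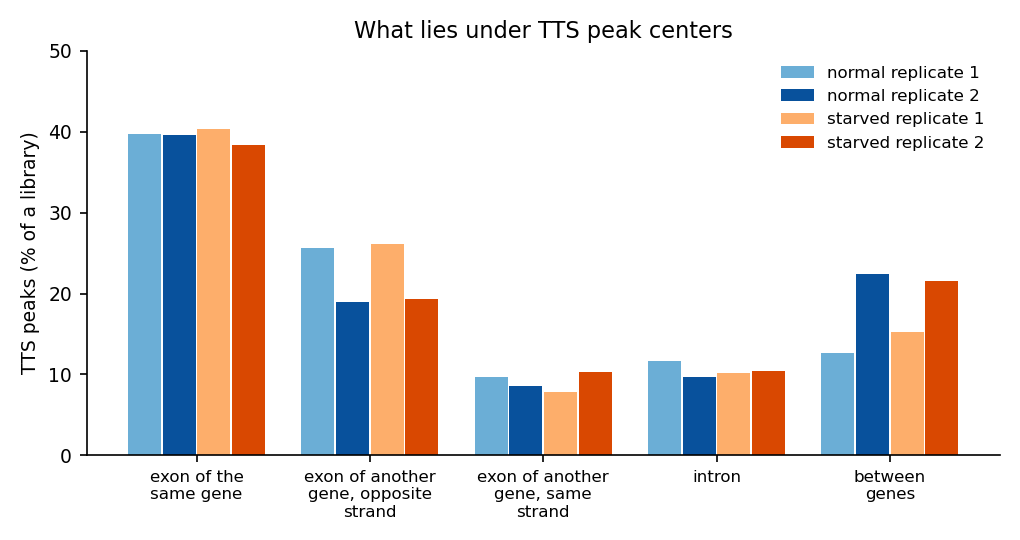
Share of TTS peaks (y axis, % of a library) by what lies under the peak center (x axis), with 1 bar per IP library. The same-gene bars are level at 38.3% to 40.3%, while the opposite-strand and between-gene bars pair up by replicate number.

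The 2 sources of ends gave different shares, but the rule that split the peaks bears on this. The RefSeq transcript was used only where no GENCODE end lay in the window, which favours centers inside a longer GENCODE transcript. Where GENCODE had an end in the window, 25.1% of centers (454 of 1811) lay in an exon of the same gene and 28.7% in an exon on the opposite strand. Where only the named RefSeq transcript placed the peak, 86.4% (490 of 567) lay in an exon of the same gene. For 484 of these 567 the current RefSeq end was in the window, while no GENCODE end was. More same-gene centers were thus placed by the RefSeq transcript (490) than by a GENCODE end (454), and the former lay inside a GENCODE exon of the same gene that ran on past the peak center.

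The parts of genes under the centers differed by place. Same-gene centers lay in the 3′UTR in 89.4% to 92.6% of cases. Opposite-strand centers lay in the 3′UTR of the facing gene in 60.9% to 73.1% and in its coding sequence in 18.3% to 30.4%. Same-strand centers in another gene lay mostly in coding sequence, 56.5% to 60.7%, and in the 5′UTR in 10.0% to 21.7%. In 451 of the 2388 kept TTS peaks no exon was touched.

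For a center on the opposite strand, the lists give no strand to say which gene the reads came from. Peaks of other classes were therefore counted on both genes in the same library. The gene of the end had another exon, UTR or promoter peak in 26.4%, 29.8%, 30.7% and 33.0% of cases (normal replicates 1 and 2, starved replicates 1 and 2). The gene of the exon had one in 81.8%, 72.1%, 74.8% and 83.5%. The exon gene was thus higher in 4 of 4 libraries, by 48.0 ± 6.01 percentage points (SD, n = 4). In the exact sign-flip permutation test, two-sided, 2 of 16 sign patterns were as extreme, the fewest that 4 libraries allow and too many to pass 0.05. These centers were chosen for lying in an exon of the facing gene and in no exon of the gene of the end. The genes therefore enter unequally, and the comparison does not tell which gene the reads came from. The gene of the exon was the gene with most exon bases under the peak, which can be the gene of the end. For same-strand centers in another gene, the shares were 16.4% to 19.6% for the gene of the end and 80.4% to 85.0% for the gene of the exon. The ends here include those of miRNA genes, such as Mir6991 and Mir6995. Such short genes leave little room for another peak, so that this comparison is uneven for that reason too and adds no support. Same-gene centers had another peak on their gene in 69.7% to 72.8%.

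The name in the deposited table often pointed elsewhere. It is the gene of the nearest transcription start, not of the end. The gene with most exon bases under a TTS peak bore the deposited name in 34.0%, 29.9%, 32.8% and 31.3% of TTS peaks. Non-coding transcripts gave the TTS label to 12.8% to 15.6% of them.

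The nearest end was that of a miRNA gene at 9.73% and 8.76% of TTS peaks in normal and at 6.99% and 8.07% in starved MEFs. These were 196 TTS peaks at 88 miRNA genes, 46 and 48 in normal MEFs, and 54 and 48 under nutrient deprivation. In 81.1% of these the center lay in an exon of another gene. Whether reads there came from the host transcript or from a miRNA precursor was not tested.

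TTS peaks between genes were short and shallow. Their median length was 280 to 300 bp, with medians of 28 to 36 IP reads and 1 to 3 input reads, and 53.7% to 66.9% of them had at most 3 input reads. Where the input had fewer than 3 reads, 3 reads stood in for it, and such a fold is lower than the reads themselves would give. Peaks were kept by their ratio to input, and whether such folds lie above or below the true ones was not tested. The gene of the end had another peak in 56.7%, 47.2%, 58.5% and 64.8% of these cases. TTS peaks in a same-strand exon of another gene were the deepest, with medians of 128 to 228 IP reads, but had the lowest median log2 folds, 1.40 in normal replicate 2 to 1.55 in normal replicate 1.

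Poly(A) signals were counted at the annotated ends. AATAAA or ATTAAA, on the transcribed strand, stood in the last 50 nt of 541 of 889 protein-coding ends at TTS peaks, 60.9% (95% Wilson interval 57.6 to 64.0, counting error only). Among all 38933 protein-coding ends of the annotation the share was 61.0%. By place, the signal was present at 71.1% of ends whose peak center lay on an opposite-strand exon (177 of 249) and at 51.6% of ends with a same-gene center (143 of 277). These shares are descriptions, since ends of 1 gene share sequence.

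GGAC was searched in a window of 200 nt at the peak center, on the strand of the transcript that ends there. It was present in 53.2% and 49.6% of TTS peaks in normal MEFs and in 52.1% and 58.6% in starved MEFs, against 56.0% to 59.2% of all kept peaks. The share minus that of 3′UTR peaks was 2.96 ± 1.95 percentage points (SD, n = 4, higher in 4 of 4 libraries), and minus that of exon peaks it was -8.38 ± 3.81 points (lower in 4 of 4). In both, 2 of 16 sign patterns were as extreme (exact sign-flip permutation tests, two-sided). By place, same-strand centers in another gene held GGAC in 61.7% to 70.5% and same-gene centers in 47.6% to 51.6%. The same-strand windows were also richer in G and C, 56.8% to 59.1% against 47.9% to 49.7%.

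The peaks of the TTS class were compared with 3′UTR and exon peaks within each library. Their median length was 340, 340, 330 and 340 bp (normal replicates 1 and 2, starved replicates 1 and 2), against 380, 410, 390 and 440 bp for 3′UTR peaks. The log2 ratio of lengths was -0.26 ± 0.087 (SD, n = 4 libraries), or 0.835 times, and TTS peaks were shorter in 4 of 4 libraries (2 of 16 sign patterns as extreme, exact sign-flip permutation test, two-sided). Against exon peaks, with medians of 420, 460, 430 and 470 bp, the log2 ratio was -0.40 ± 0.071.

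TTS peaks also had higher median log2 IP/input folds, 1.85, 1.87, 1.71 and 1.82, against 1.73, 1.62, 1.64 and 1.61 for 3′UTR peaks and 1.51, 1.51, 1.49 and 1.55 for exon peaks. The difference from 3′UTR peaks was 0.16 ± 0.085 (1.12 times, higher in 4 of 4 libraries, with 2 of 16 sign patterns as extreme in the exact sign-flip permutation test, two-sided). At most 3 input reads were found in 27.3%, 28.5%, 40.9% and 33.1% of TTS peaks, which was 13.4 ± 3.71 percentage points above 3′UTR peaks and 24.3 ± 3.57 above exon peaks. Among peaks with more than 3 input reads the difference in log2 fold was 0.077 ± 0.028. Among peaks with a fold of at least 4 it was -0.024 ± 0.058, with TTS peaks higher in 2 of 4 libraries. Peaks of the classes outside exons came closer to them or went further. Intron peaks were shorter than TTS peaks in every library (medians of 280, 310, 260 and 330 bp). Intergenic peaks had higher median log2 folds in every library (1.91, 2.00, 1.82 and 1.89), and 35.3%, 37.0%, 45.0% and 37.7% of them had at most 3 input reads.

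**Figure D3:**
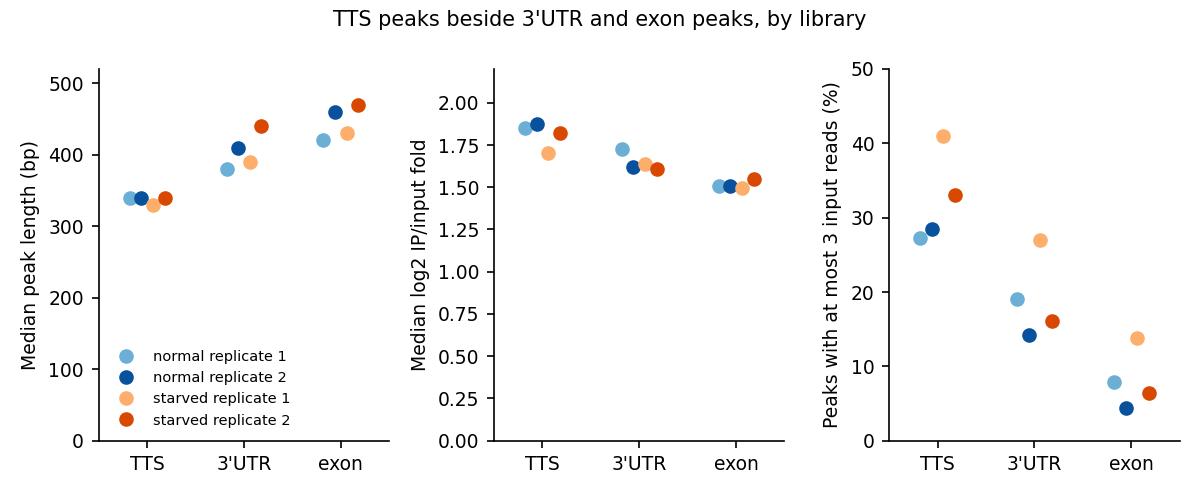
Median peak length (left, bp), median log2 IP/input fold (middle) and share of peaks with at most 3 input reads (right, %) for TTS, 3′UTR and exon peaks, with 1 point per IP library. Of the 3 classes shown, TTS peaks are the shortest, with medians of 330 to 340 bp, and have the highest share with at most 3 input reads, 27.3% to 40.9%.

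Recurrence between replicates was counted next. A peak from the matching library, of the same condition, overlapped 47.1% and 37.4% of TTS peaks in normal MEFs, and 43.1% and 51.3% under nutrient deprivation. The difference from 3′UTR peaks was -15.3, -15.1, -11.3 and -15.5 percentage points (normal replicates 1 and 2, starved replicates 1 and 2). From exon peaks it was -21.4, -10.0, -27.2 and -5.43 points. These are 2 pairs of libraries, each seen from both sides, and were not tested. Their median IP reads, 63, 57, 77.5 and 68, were also below those of 3′UTR peaks (89, 95.5, 120 and 130), and the part of depth in this was not tested.

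Peaks of the 4 libraries that overlapped were merged into 39979 regions, of which 1436 held a TTS peak. A TTS peak was present in 1 library in 942 of them, in 2 in 258, in 3 in 145 and in all 4 in 91. Of the 1436 regions, 289 (20.1%) were called in all 4 libraries by a peak of any class, against 16.3% of all regions. Regions called in 1 library made up 53.8%, against 49.0% of all regions. Called in both starved and in neither normal library were 52 regions with a TTS peak, 3.62% against 4.7% of all regions. Called in both normal and in neither starved library were 14, or 0.975% against 1.3%.

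The 91 recurrent TTS regions had a TTS peak in each of the 4 libraries. They are called here by the gene of the nearest end, and the deposited name can differ, as with Cbarp for Stk11, Pcif1 for Zfp335, Inpp5e for Sec16a, Podnl1 for Cc2d1a, Cela2a for Casp9 and 4930597A21Rik for Rnf145. By place, 30 had their center in an exon of the same gene, 26 in an opposite-strand exon, 18 in a same-strand exon of another gene, 11 between genes and 5 in an intron, and 1 could not be placed. The place was the same in all 4 libraries for 70 of them. At 17 the nearest end was that of a miRNA gene, and 16 of these 17 lay in an exon of another gene. Their median log2 fold was 1.87 and 1.64 in normal MEFs, and 1.67 and 1.58 under nutrient deprivation, against 1.61, 1.60, 1.53 and 1.69 for all 6531 regions called in all 4 libraries.

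Among the recurrent regions, the most reads lay at Gna12, which encodes the alpha subunit of a heterotrimeric G protein (chr5:140758371-140761340, 3′UTR). There were 7576 and 7962 IP reads for normal and 14302 and 12089 for starved MEFs, against 2642, 3567, 2664 and 3549 input reads. The log2 folds were 1.21, 1.16, 1.2 and 1.18, so that the 4 libraries were nearly equal once scaled. The named RefSeq transcript ends 39 to 109 bp before the centers, whereas the GENCODE end with the poly(A) signal printed above lies at position 140758408, further downstream. The deposited name is Amz1, a gene that overlaps on the opposite strand.

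Other regions among those with the most reads were 2 miRNA ends in host exons and 2 ends that faced exons of the opposite strand. The region at Mir6991 (chr19:7421141-7425850) lay in the 3′UTR of 2700081O15Rik, with 3697 and 3496 IP reads in normal and 6433 and 4478 in starved MEFs and log2 folds of 1.59, 1.69, 1.32 and 1.68. The region at Mir6995 (chr19:47272941-47273760) lay in the coding sequence of Sh3pxd2a, which encodes a scaffold protein of podosomes. It had 2416 and 2843 IP reads in normal and 5698 and 4972 in starved MEFs. Its log2 folds, 2.00, 2.02, 1.88 and 2.29, were the highest of these deep regions, and starved and normal libraries overlapped.

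At Sgsm3 (chr15:81012191-81013970) the centers lay 780 to 870 bp beyond the end, in the 3′UTR of Mrtfa on the opposite strand. Mrtfa encodes an actin-regulated coactivator of SRF. The IP held 2731, 2807, 5670 and 4561 reads and the log2 folds were 1.21, 1.15, 1.29 and 1.10. At Stk11, which encodes the kinase LKB1 upstream of AMPK, the centers lay 373 to 993 bp beyond the end in the coding sequence of Cbarp on the opposite strand (chr10:80129691-80133320). The IP held 1583 and 943 reads in normal and 3042 and 2260 in starved MEFs, with log2 folds of 1.61, 1.63, 1.15 and 1.36. Both starved libraries were below both normal libraries in fold at Stk11, with an edgeR log2 change of -0.37 (unadjusted p = 0.0829).

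**Figure D4:**
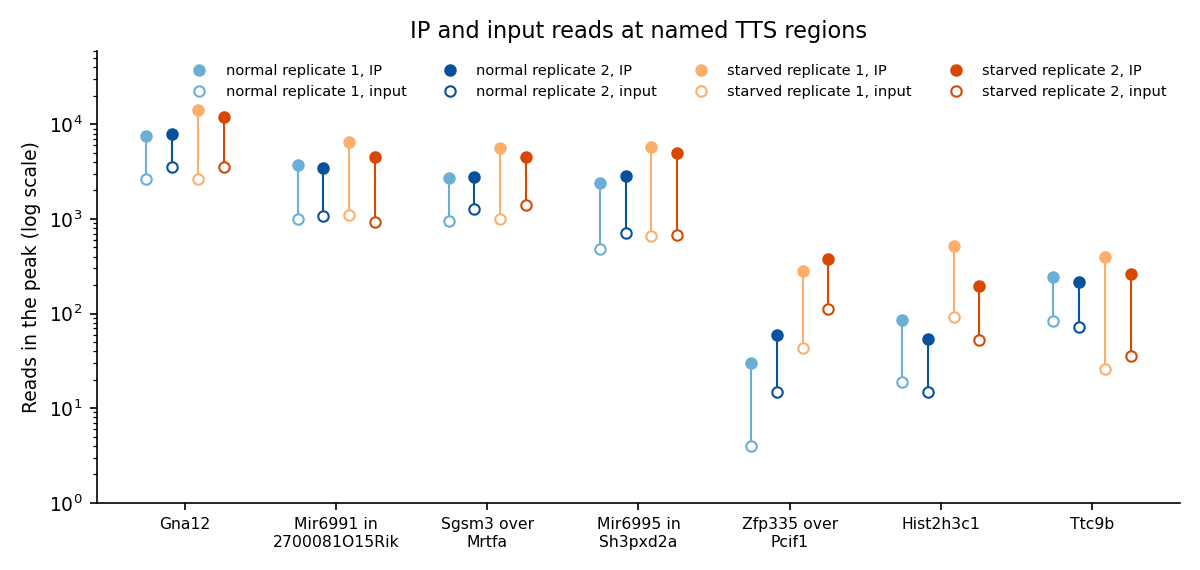
IP reads (filled) and input reads (open) in the peak, on a log scale (y axis), at 7 named TTS regions (x axis), with 1 line per IP library joining each IP value to its input, before any scaling between libraries. At Ttc9b the starved libraries have fewer input reads (26 and 36) than the normal ones (84 and 72), while at Zfp335 over Pcif1 and at Hist2h3c1 they have more of both kinds.

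The highest folds that held in every library belonged to regions of few reads. At 1700037H04Rik, facing the 3′UTR of Hspa12b in 3 of 4 libraries (chr2:131145191-131146370), the log2 folds were 2.38, 2.25, 2.53 and 2.12 on 71, 124, 283 and 52 IP reads. At Hgsnat, which encodes a lysosomal enzyme of heparan sulfate breakdown, they were 2.01, 2.13, 2.26 and 2.26 with centers 273 to 733 bp beyond the end, between genes. At Xylt1, which encodes the enzyme that starts glycosaminoglycan chains, they were 2.55, 1.95, 2.08 and 2.17 in the 3′UTR. The conditions overlapped at 1700037H04Rik and Xylt1, whereas at Hgsnat both starved libraries lay above both normal ones (edgeR log2 change of the ratio 0.16, unadjusted p = 0.797). Mfsd4b4 (2.47, 2.67, 2.39 and 1.98) and Cyp2u1 (2.10, 2.75, 2.23 and 1.94) had folds of the same size. Tmem95 had 2.86, 2.08, 1.95 and 3.50 on 36, 72, 27 and 51 IP reads, where the starved values rest on 1 and 3 input reads.

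Whether nutrient deprivation changed YTHDF3 binding at transcript ends was asked within each replicate number and with edgeR. In replicate 1 the log2 IP/input fold was higher under nutrient deprivation at 28 and lower at 63 of the 91 regions, with a median change of -0.16. The median change over all 6531 regions was -0.058, with 42.8% of regions higher against 30.8% of the TTS regions. In replicate 2 it was higher at 48 and lower at 43 of the 91, with a median change of 0.025, against 0.076 over all regions, and 59.2% of all regions were higher against 52.7% of the TTS regions. The median change thus had opposite signs in the replicates, for the 91 and for all regions, and 17 of the 91 (18.7%) were higher and 32 (35.2%) lower in both, where 27.3% and 25.3% of all regions were.

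A change of at least 1.8-fold in both replicates was met by 0 of the 91 TTS regions in either direction. The study used this fold cutoff for its differentially enriched peaks, which were not limited to these regions. The 91 needed a TTS peak in all 4 libraries, so that a site gained or lost under nutrient deprivation could not enter. Among all regions called in all 4 libraries 0.367% were higher and 0.337% lower by this rule. The nearest were Ttc9b, with a smaller change of 0.69 on the log2 scale, and Zfp335, with -0.84, where the cutoff lies at 0.848.

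By edgeR's quasi-likelihood test with Benjamini-Hochberg adjustment over all 6531 regions, the IP/input ratio differed at 0 of the 91 TTS regions. The background was 0.0153% of all regions called higher and 0.0% called lower. At an unadjusted p under 0.05, edgeR gave 1 higher and 2 lower, where 1.45% and 1.52% of all regions passed. DESeq2 gave 1 higher and 0 lower unadjusted and called 0 after adjustment. IP reads per base differed at 0 TTS regions after adjustment by edgeR (background 0.0% higher and 0.0919% lower, lowest adjusted p 0.469) and by DESeq2. At an unadjusted p under 0.05, 2 were higher and 2 lower by edgeR (background 2.33% and 5.83%) and 3 and 1 by DESeq2. Input reads per base also differed at 0 by both tools (background for edgeR 0.0153% higher and 0.0919% lower, lowest adjusted p 0.363). Unadjusted, 4 were higher and 1 lower by edgeR (background 2.66% and 3.87%) and 5 and 1 by DESeq2. A p that misses the threshold does not show that levels were equal.

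**Figure D5:**
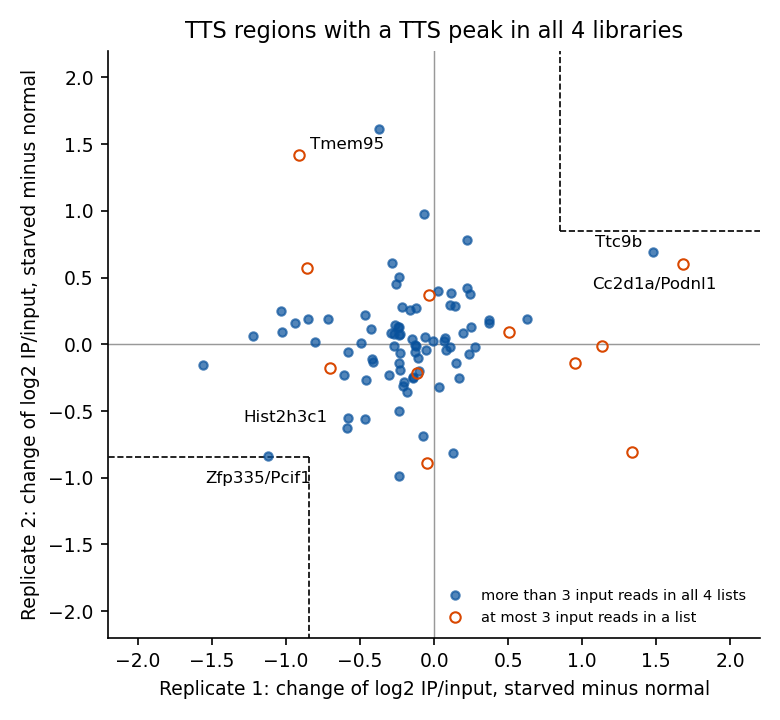
Change of the log2 IP/input fold under nutrient deprivation in replicate 1 (x axis) and replicate 2 (y axis) for the 91 recurrent TTS regions, with open circles where a library had at most 3 input reads. Dashed corners mark the 1.8-fold cutoff in both replicates, which 0 regions reached, with Ttc9b and Zfp335/Pcif1 nearest to it.

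Ttc9b, which encodes a tetratricopeptide repeat protein, had the lowest ratio p of the 91 (chr7:27656361-27657200, 3′UTR, 568 to 648 bp beyond the RefSeq end). The IP held 246 and 215 reads in normal and 400 and 261 in starved MEFs, while the input held 84 and 72 in normal and 26 and 36 in starved MEFs. The log2 folds were 1.24 and 1.58 in normal and 2.72 and 2.27 in starved MEFs, so that the groups did not overlap. The edgeR log2 change of the ratio was 1.07 (unadjusted p = 0.00286, adjusted p = 1.0). IP reads per base differed by -0.42 and -0.65 on the log2 scale, starved minus normal, and edgeR's log2 change of input reads per base was -1.69 (unadjusted p = 0.00686, adjusted p = 0.363).

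At Zfp335 the change of the fold was negative in both replicates. Zfp335 encodes a zinc finger protein, and the peak centers lay 102 to 332 bp beyond its end and, in 3 of 4 libraries, in the 3′UTR of Pcif1, the methyltransferase of the cap-adjacent adenosine of mRNA (chr2:164891431-164892470). The IP held 30 and 60 reads in normal and 279 and 376 in starved MEFs, and the input 4 and 15 against 43 and 112. The log2 folds were 2.60 and 2.00 in normal and 1.48 and 1.16 in starved MEFs. The groups did not overlap in fold, in IP reads per base or in input reads. The edgeR log2 change was -0.90 for the ratio (unadjusted p = 0.0467) and 0.89 for IP reads per base (unadjusted p = 0.0158, adjusted p = 0.469). The peaks were 220 and 340 bp long in normal and 660 and 740 bp in starved MEFs, so that the values come from stretches of different size.

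Hist2h3c1, a replication-dependent histone H3 gene, was the histone of the list with a TTS peak in all 4 libraries (chr3:96247131-96248040). The IP held 85 and 54 reads in normal and 523 and 195 in starved MEFs, and the log2 folds were 1.85, 1.85, 1.27 and 1.29. IP reads per base were higher in both starved libraries, by 1.31 and 0.87 on the log2 scale (edgeR log2 change 1.07, unadjusted p = 0.0634, adjusted p = 0.644). The groups did not overlap, but reads of near-identical H3 copies such as Hist2h3c2 may be split between genes, so that the gene is uncertain.

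Other regions with IP reads per base higher in both starved libraries were at Sec16a and Casp9. At Sec16a, a scaffold of endoplasmic reticulum exit sites, the peak lay in the 5′UTR of Inpp5e on the same strand, with 48 and 48 IP reads in normal and 992 and 721 in starved MEFs. The peaks were 260 and 260 bp in normal and 1580 and 1610 bp in starved MEFs, so that per base the log2 change was 0.99 and 0.83. At Casp9, an initiator caspase of apoptosis, the IP held 184, 353, 1825 and 735 reads in peaks of 550, 1380, 2320 and 1330 bp, so that per base the log2 change was 0.46 and 0.66 (adjusted p = 0.801 by edgeR). Lower in both starved libraries per base were Rnf145, a ubiquitin ligase gene, with 474 and 465 IP reads in normal and 446 and 382 in starved MEFs (-0.83 and -0.68), and Tmem95 (-0.69 and -0.84). None of these passed adjustment.

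IP reads per base were higher in both starved libraries at 33 of the 91 regions and lower at 29, where 32.2% and 34.1% of all regions did so. Among those with smaller differences, Pdpr, which encodes a regulator of pyruvate dehydrogenase phosphatase, had 358 and 831 IP reads in normal and 886 and 962 in starved MEFs (log2 change per base 0.43 and 0.44). Ascc2 had 162 and 177 against 366 and 1041 IP reads (0.43 and 0.41). On the negative side, Cmklr1, the chemerin receptor gene, had 40 and 101 against 55 and 121 IP reads between genes (-0.96 and -0.39). Erp29, which encodes a chaperone of the endoplasmic reticulum, had 102 and 389 against 89 and 179 IP reads and faced Naa25 in 2 of 4 libraries (-0.57 and -0.37). The adjusted p of edgeR lay between 0.613 and 0.773 for these 4.

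Of the 17 regions with a higher fold in both replicates, 4 more are described next, each with a smaller change than Ttc9b. At Mir7665, in the coding sequence of Mapkbp1, the IP held 91 and 104 reads in normal and 135 and 123 in starved MEFs, with log2 folds of 1.81, 1.89, 2.05 and 2.27, while IP reads per base differed by -0.42 and -0.54 on the log2 scale. At Camk2g, in the 5′UTR of the heparan sulfate enzyme gene Ndst2, it held 342, 236, 600 and 400 reads, with log2 folds of 1.54, 1.53, 1.76 and 2.30. At both of these the starved libraries lay above the normal ones. Zfp451 (1.83, 1.12, 2.05 and 1.55) and Zfp618 (2.32, 1.87, 2.95 and 2.06) are zinc finger genes with same-gene 3′UTR centers, and their groups overlapped.

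The next largest positive change of the fold in both replicates was at Podnl1, on few input reads. The centers lay 438 to 823 bp beyond the end of Cc2d1a, and in 3 of 4 libraries in the 3′UTR of Podnl1 on the opposite strand, beside the GGAC printed above. The log2 folds were 1.87 and 1.18 in normal and 3.55 and 1.78 in starved MEFs, where 3.55 rests on 3 input reads. The conditions overlapped. Cenpb, which encodes a centromere protein, had log2 folds of 2.2 and 2.43 in normal against 1.73 and 1.87 in starved MEFs. These did not overlap, on 27 to 147 IP reads. Uckl1os over Zfp512b had 2.79 and 1.70 against 2.2 and 1.08, and Eda2r, the ectodysplasin A2 receptor gene, had 1.53 and 1.53 against 1.29 and 1.02.

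Of the 52 regions found in both starved libraries alone, 40 had a TTS peak in both. The TTS peaks of the 52 had median IP reads of 70 and 63 and median log2 folds of 1.8 and 1.76, while all TTS peaks of these libraries had medians of 77.5 and 68 IP reads. The 6 with the highest mean fold had few input reads. Lgr6, a receptor for R-spondins (deposited as Ube2t), had 37 and 64 IP reads against 1 and 3 input reads. Eif2ak1, which encodes the heme-regulated eIF2alpha kinase (deposited as Aimp2), had 49 and 36 IP reads against 0 and 2 input reads. Dyrk1b, a protein kinase gene, had 113 and 63 IP reads against 7 and 7 input reads (log2 folds 2.79 and 2.58), the most in sum among the 6. LTO1 (deposited as Ccnd1) had 50 and 29 IP reads, 2310011J03Rik over Apc2 had 50 and 25, and Bdkrb2, the bradykinin B2 receptor, had a TTS peak of 35 IP reads in starved replicate 2. Bdkrb2 also had another TTS region, in its 3′UTR (chr12:105592791-105593560), with a TTS peak in all 4 libraries (17 and 53 IP reads in normal and 108 and 106 in starved MEFs). The absence of a peak in normal MEFs says only that none was called there.

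Of the 14 regions found in both normal libraries alone, 8 had a TTS peak in both. Beyond the end of Taok2, a kinase of the MAP kinase cascades (deposited as Hirip3), 28 and 30 IP reads stood against 3 and 7 input reads. At Tada2b, facing the 3′UTR of Grpel1, a mitochondrial co-chaperone gene, there were 16 and 18 IP reads against 0 and 1, and at Psmd8, a subunit of the proteasome, 13 and 11 against 0 and 0. At Nutf2 the peak lay in an exon of Edc4, a scaffold of mRNA decapping, with 251 IP reads in normal replicate 1 and 42 in replicate 2. Tomt had 15 and 21 IP reads and Slc26a2 had a TTS peak of 30 IP reads in normal replicate 1.

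When the 289 regions called in all 4 libraries with a TTS peak in at least 1 of them were taken, 1 region passed edgeR. At Afap1, which encodes an actin filament associated protein, edgeR's log2 change was -4.28 for IP reads per base (adjusted p = 0.0233) and -5.80 for input reads per base (adjusted p = 0.00735). The peaks compared were not the same stretch. The normal peaks were 4040 and 4430 bp long with 5390 and 8722 IP reads, while the starved TTS peaks were 280 and 210 bp long with 36 and 30 IP reads.

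Gene lists were read by the gene of the end. TTS peaks were found at 9 of 45 autophagy genes, 5 of 35 immediate early and ERK feedback genes, 4 of 16 ATF4 targets, 2 of 21 genes of the m6A machinery and 2 of 25 genes of 3′ end processing. Read by the gene with most exon bases under the peak, the counts were 4, 4, 2, 2 and 2 in the same order. Of all 22500 GENCODE genes with a coding sequence, 1071 (4.76%) had one by the gene of the end. That background was not limited to genes with RNA in these cells, so that it is no measure of enrichment for the lists. The autophagy list holds genes that the study picked as YTHDF3 targets with the help of these same data, among them Foxo3, Ap4m1 and Sesn2. Sesn2 and Ddit3, which the study picked in the same way, are also on the ATF4 list, and Sesn2 is among its genes with a TTS peak. The shares of these 2 lists are therefore not independent of these data and were not tested against that of all genes. No gene of these lists had a TTS peak in all 4 libraries, where 70 (0.311%) of all genes with a coding sequence did. The listed genes were therefore not tested with edgeR as recurrent regions. Of 82 histone genes 6 had a TTS peak, and of 101 symbols starting Rpl or Rps 3, of which Rps6kl1 encodes a kinase-like protein and not a ribosomal protein.

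Among the autophagy genes, Foxo3, a transcription factor of autophagy genes, had a TTS peak in normal replicate 1 alone (922 IP and 292 input reads), while the region was called by peaks of other classes in the other libraries. Map1lc3a and Gabarap encode ATG8-family proteins of the autophagosome membrane. Each had 1 TTS peak in starved replicate 1, of 34 and 286 IP reads, and both lay in exons of another gene (Pigu and Phf23). Sqstm1, the cargo receptor p62, had 1 of 17 IP reads in starved replicate 1. At Wipi1 the peaks had 16 and 26 IP reads in normal replicate 1 and starved replicate 2, on the opposite-strand exons of Arsg. Ap4m1 had 1 of 60 IP reads in starved replicate 1. A region in Ap4m1, with the end of Taf6 nearest, had TTS peaks of 57 and 140 IP reads in the starved libraries and was called in no normal library. Sesn2 had 1 of 134 IP reads in normal replicate 1, and Wipi2 had 1 of 16 in starved replicate 2. Atg9a had 95 and 85 in normal and starved replicate 2, in an exon of Abcb6.

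Of the ERK feedback genes, Dusp4, a phosphatase of ERK, had the deepest TTS peaks of the lists. The IP held 7282 and 9492 reads in normal MEFs and 7666 in starved replicate 2, with log2 folds of 1.10, 1.09 and 1.22, and the region was called by another class in starved replicate 1. Dusp5 was called in starved MEFs alone, with 154 and 988 IP reads and log2 folds of 1.34 and 1.06. Spred2, an inhibitor of the Ras-ERK pathway, had TTS peaks of 70, 658 and 845 IP reads in all but starved replicate 2.

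Of the m6A machinery, Rbm15, an adaptor of the methyltransferase complex, had TTS peaks of 164 IP reads in normal replicate 2 and 119 in starved replicate 1, with log2 folds of 1.36 and 1.35. Ythdf2, a reader of the same family as YTHDF3, had 1 of 14 IP reads in starved replicate 2. Of the ATF4 targets, Chac1, a glutathione-degrading enzyme, had 11 and 43 IP reads in normal and starved replicate 2, and Atf4 itself had 11 in normal replicate 2. Of the genes of 3′ end processing, Cstf1, a subunit of the cleavage stimulation factor, had 355 and 252 IP reads in starved MEFs and log2 folds of 1.27 and 1.18. In normal replicate 1 that region was called by a peak of another class.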

How the data were processed

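YTHDF3 RIP-seq reads of 4 IP and 4 input libraries were, by the study's methods and the submitters' processing notes, trimmed with Trimmomatic, aligned to mm10 with TopHat2 2.0.13, called into peaks with diffReps and annotated with HOMER. For each peak the authors deposited an IP and an input signal (reads multiplied by 1 factor per library), the log2 of their ratio and p-values. In normal replicate 2 the factor was 1, so that the authors deposited counts. Dividing by the factor gave whole reads for 100% of values. The lists do not name the inputs, and inputs of the same condition and replicate number were assumed. Peaks at least 2 times over input with a p below 0.0001 were used. Library depth is not known, since the lists hold reads in called peaks alone.

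Regions were made by merging peaks that share 1 bp or more. In a TTS region the TTS peak with the highest fold was used. Reads were tested with edgeR 4.0.16 (quasi-likelihood, TMM normalization, Benjamini-Hochberg adjustment over 6531 regions) and, as an alternative, DESeq2 1.42.0 in R 4.3.3, and the scripts were tested on simulated data. Positions used GENCODE vM21 basic and RefSeq on GRCm38.p6. A peak with no GENCODE end in the window was placed by the transcript named in the deposited annotation, found for 2382 of 2415 TTS peaks. Scripts ran in Python 3.11.15 (scipy 1.17.1, numpy 2.4.6, pandas 2.3.3, pysam 0.24.0). Wilson intervals cover counting error only.

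Named were, among recurrent regions whose libraries each held 20 IP reads or more (86 of 91), the 6 with the largest smaller change of both replicates in each direction, for fold and for IP reads per base, the 6 with the highest lowest fold and the 6 with the most reads, with the 6 of highest mean fold called in 1 condition and list members with TTS peaks in all 4 libraries. 1 region of the rule is not reported here. List members without recurrent TTS peaks, Afap1 and the printed sequences were chosen after values were seen. Members and lists were chosen with earlier results of these data known. Gene lists were matched by symbol. MeRIP-seq and other experiments of the study were not analysed here.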

Additional observations from a re-analysis of the deposited data

How the results depend on the processing

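Of 82 alternative values, 65 kept their direction and side of the threshold, or stayed within the spread. The counts of 0 for the ratio held under DESeq2, DESeq2 size factors, the 20-read filter, the peak with the most IP reads, leaving out each library and the replicate block. With a TTS peak required in at least 1 library, IP reads per base gave 1 call and input 1 (Afap1, both lower). By the same setting 1 region was at least 1.8-fold higher in both replicates, again Afap1. A cutoff of 1.5-fold gave 2 higher and 2 lower, and scaling each library's folds by its median gave 1 lower (Zfp335). Without replicate 1, 3 regions were higher and 2 lower, and without replicate 2, 5 were higher and 9 lower. A fold of at least 4 left 7 regions and a 50% reciprocal overlap 33. The share of TTS peaks, starved minus normal, went from 0.266 to -0.0886 percentage points without replicate 1 and to 0.620 without replicate 2, and was 0.266 with the replicate block. The difference in log2 fold from 3′UTR peaks was -0.024 at a fold of at least 4. Centers lay beyond the end of the named RefSeq transcript in 85.3%. GGAC was found in 32.6% of 100 nt windows and in 78.4% when both strands were searched. AATAAA alone was found at 47.0% of ends. By the named transcript, 37.6% of centers lay in an exon of the same gene. This alternative, the matching one for the opposite strand (23.5%) and the GGAC count on the strand of the exon (54.0%) were chosen after seeing the data. Where fewer samples, bases or regions enter, the construction changes the value, and for the other shifts the cause was not tested. Replicate numbers share only a number in the labels. The correlation of differences between same-numbered libraries was 0.311 for fold and 0.534 for IP reads per base over the 91 regions, with 2 pairs. The replicate block moved no count of adjusted calls, with 0 for ratio, IP and input. TTS peaks with at most 3 input reads, 27.3% to 40.9% of a library, have folds that rest on few reads. Below 3, the 3 reads that stand in set the fold lower than the reads themselves would give. Unknown depth limits what a missing peak can show.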
